A study of Rattus norvegicus with 24 samples.

Results

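Nuclear-encoded genes of oxidative phosphorylation were followed in the liver of rats given 1 of 6 compounds. Members were taken by name: every probe of the array that was no control spot and whose gene name starts with Nduf, Sdha, Sdhb, Sdhc, Sdhd, Uqcr, Cox4, Cox5, Cox6, Cox7, Cox8 or Atp5. This gave 68 probes for 42 of the 17039 genes and unnamed features on the array. Of the 42 genes, 20 belong to complex I, 3 to complex II, 1 to complex III, 8 to complex IV and 8 to complex V (ATP synthase). The other 2 were taken in by their names alone: Atp5s, which encodes coupling factor B, and Cox4nb, a neighbour of Cox4i1 that encodes no subunit of the chain. After dim probes were left out, 40 of the 42 genes were tested among 12770 features. Neither Cox6b nor Ndufs4 lay well above background in either dye on any array, so both have no value here. Of the 42, 39 had a probe that was well above background in both dyes on all 24 arrays, and no probe was saturated. The array held none of the subunits encoded by mitochondrial DNA under their names.

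The arrays came from 24 male F344 rats, an inbred strain, aged 5 weeks per the labels, which received their compound once a day by gavage for 28 days at 5 ml per kg. Each compound was given to 4 rats. The study's design names 4 carcinogens: Hexachloroethane at 500 mg/kg/day, 1,2,3-Trichloropropane (50 mg/kg/day; here trichloropropane), 1-Amino-2-methylanthraquinone (aminomethylanthraquinone) at 150 mg/kg/day and, at 250 mg/kg/day, 3-(4-Chlorophenyl)-1,1-dimethylurea (monuron). The 2 compounds given as non-carcinogens were 1,2-Dichlorobenzene (dichlorobenzene), dosed at 300 mg/kg/day, and the antibiotic Tetracycline hydrochloride (tetracycline), dosed at 1000 mg/kg/day. The vehicle was water for tetracycline and corn oil for all others. On each array the Cy3-labelled liver RNA of 1 treated rat lay beside a pool of vehicle RNA that carried Cy5, so 1 array gave 1 ratio of a treated rat over vehicle.

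Oxidative phosphorylation passes electrons from NADH through complex I, or from succinate through complex II, to coenzyme Q, then through complex III and cytochrome c to complex IV, which reduces oxygen. Complexes I, III and IV pump protons out of the mitochondrial matrix, and complex V makes ATP as protons flow back. Most subunits are encoded in the nucleus, the rest in mitochondrial DNA. Hepatocytes are rich in mitochondria and use this ATP for synthesis, transport and detoxification.

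The ratio rests on short DNA probes, printed here for 5 genes on which the results turn. These genes represent core iron-sulfur subunits of complex I and the peripheral stalk of complex V. Each probe is a 60-base strand of the array design, written 5′ to 3′.
Ndufs1 probe a: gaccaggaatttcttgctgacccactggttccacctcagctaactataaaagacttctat
Ndufs1 probe b: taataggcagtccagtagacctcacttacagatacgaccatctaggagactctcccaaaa
Ndufv2 probe a: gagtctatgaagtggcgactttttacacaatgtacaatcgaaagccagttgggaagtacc
Ndufv2 probe b: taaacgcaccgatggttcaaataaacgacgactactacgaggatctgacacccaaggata
Ndufs8 probe a: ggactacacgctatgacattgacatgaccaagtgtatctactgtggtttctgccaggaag
Atp5o probe a: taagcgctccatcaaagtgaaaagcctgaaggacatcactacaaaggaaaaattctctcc
Atp5o probe b: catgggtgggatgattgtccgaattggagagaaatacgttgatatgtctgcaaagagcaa
Atp5j probe a: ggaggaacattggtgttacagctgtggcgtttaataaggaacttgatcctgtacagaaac
The probes of Ndufs1, of Ndufv2 and of Atp5o share no stretch of 8 bases or more within a gene, so in each of these genes they read separate parts of the transcript.

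On single arrays 59.7 to 71.7% of probes gave a Cy3 signal well above background and 64.2 to 75.9% a Cy5 signal, and the number of arrays limits the precision. All 8 hepatocyte markers on the array were well above background in every treated rat, while 4 of 6 skeletal muscle markers (Ckm, Myh4, Tnnt3 and Mlc3) were not above it in any. Relative to vehicle the mean log2 ratio of the 8 hepatocyte markers was below 0 in every rat, with group medians between -0.61 under dichlorobenzene and -0.27 under tetracycline; its part in the results was not tested. In bulk liver RNA, fewer cells of a type and less RNA per cell cannot be told apart. No slide held more than 1 compound, so the part of the slide and that of the compound cannot be told apart, and a difference between vehicle pools stays in every comparison.

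Values below are log2 ratios of treated over vehicle, 1 value per gene (the mean of its probes), given as mean ± SD over 4 rats unless another quantity is named. A gene is called higher or lower when its Benjamini-Hochberg adjusted p, over all features tested in limma, was under 0.05. All directions against vehicle hold for arrays scaled by loess, which sets the typical ratio to 0 at each brightness. With plain median centring the median of all features moved to between -0.30 and -0.19 and that of the members to between -0.82 and -0.39, so that 35 to 38 of the 40 members were called lower under each compound. Of the named differences between 1 compound and the other 5, 26 of 34 kept direction and call with median centring and 1 reversed. Most counts of members called moved by over 1.5 times between the scalings. A dye effect alike on all arrays cancels between compounds.

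Under each compound many single members were called, by small amounts and in both directions. No member reached a 2-fold change under any compound, and of all features 1.13% did and were called under hexachloroethane, 0.948% under trichloropropane, 2.08% under aminomethylanthraquinone, 1.45% under monuron, 1.53% under dichlorobenzene and 0.282% under tetracycline. The median of the 40 members lay between -0.03 under tetracycline and 0.08 under hexachloroethane, beside -0.02 to -0.01 for all features. Hexachloroethane called 17 members higher and 5 lower (of all features, 22.6% and 27.3%). Trichloropropane called 14 and 8 (20.4% and 25.1%), aminomethylanthraquinone 13 and 9 (27.7% and 31.0%), monuron 16 and 5 (20.2% and 25.6%), dichlorobenzene 16 and 7 (25.2% and 26.9%) and tetracycline 11 and 10 (14.9% and 21.5%). In either direction 55% of members were called under hexachloroethane (49.9% of all features), 55% under trichloropropane (45.5%), 55% under aminomethylanthraquinone (58.8%), 52.5% under monuron (45.8%), 57.5% under dichlorobenzene (52.1%) and 52.5% under tetracycline (36.4%). Without monuron rat 1 or rat 4 the 5 lower calls for monuron became 3.

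**Figure D1:**
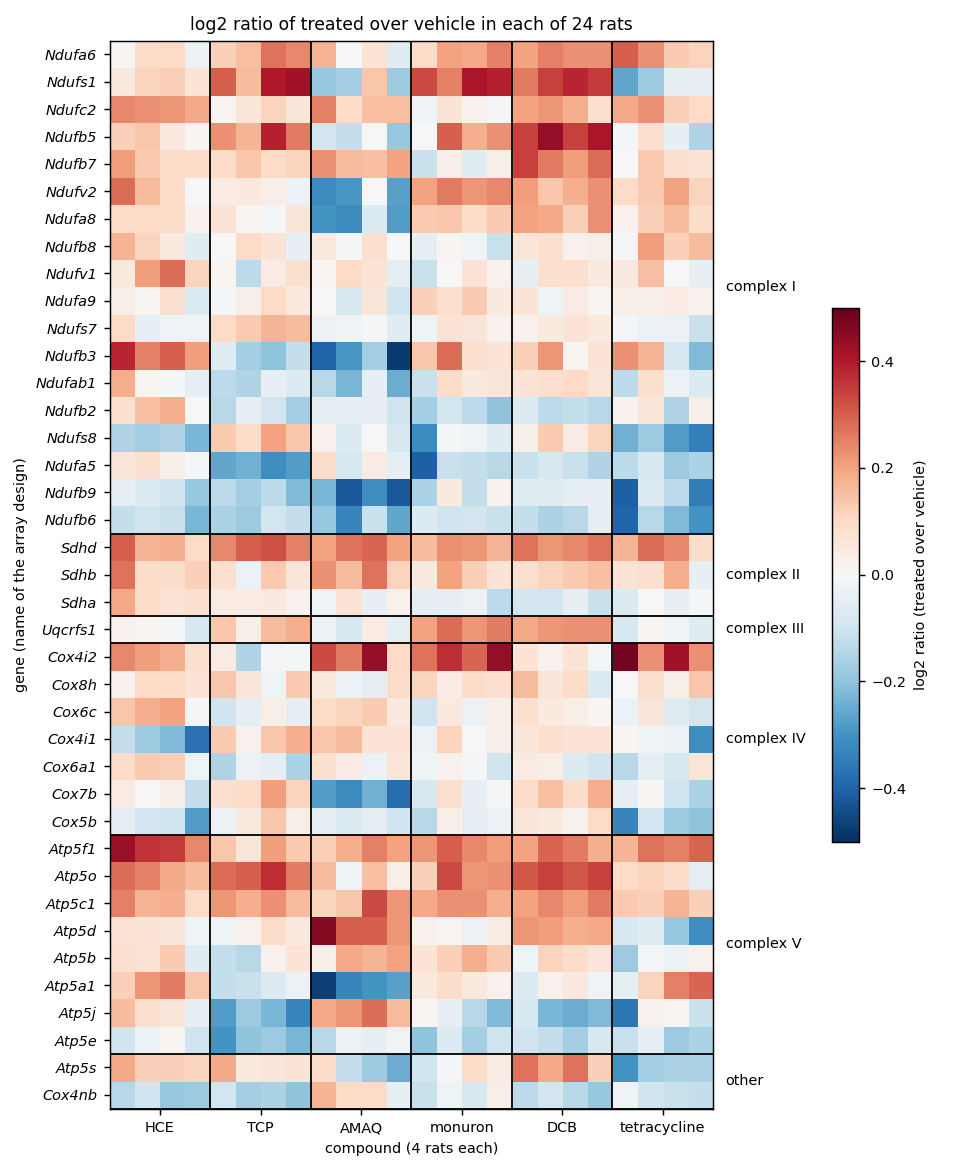
Log2 ratio of treated over vehicle (colour, loess-scaled) of 39 of the 40 tested members in each of 24 rats, 4 columns per compound (HCE, hexachloroethane; TCP, trichloropropane; AMAQ, aminomethylanthraquinone; DCB, dichlorobenzene), ordered by complex and by the mean over the compounds. Ndufb6 is below 0 and Atp5f1, Atp5c1 and Sdhd are above 0 in all 24 rats, a direction that median centring turns for the latter 3, while rows such as Ndufs1, Ndufb3 and Atp5a1 change colour between compounds.

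A few members held 1 sign in every rat. Sdhd, the membrane anchor of complex II, ranged from 0.09 to 0.32 over the 24 rats with a median of 0.24. Atp5f1, the b subunit of the peripheral stalk of ATP synthase, ranged from 0.06 to 0.43, and Atp5c1, the gamma subunit that turns within the catalytic head, from 0.10 to 0.33. These 3 genes were called higher under all 6 compounds, as were 1.84% of all features, but with median centring all 3 lay below 0 in all 24 rats. Ndufb6, an accessory subunit in the membrane arm of complex I, lay between -0.40 and -0.05 and was called lower under all 6 compounds. It alone did so, 2.5% of the members, near the 2.82% of all features. In all 24 rats 2.5% of members and 3.6% of all features were lower. Ndufb6 was lower with median centring too. On its brightest probe alone the call under hexachloroethane ended (-0.07, adjusted p = 0.0811, limma). Because all treated samples carried the same dye, the part of the dye in a shift shared by all 24 arrays was not tested. With loess the compound means of Sdhd and of Atp5c1 spanned 0.09 and those of Atp5f1 0.21; with median centring those of Sdhd ran from -0.71 to -0.37, those of Atp5c1 from -0.82 to -0.44 and those of Atp5f1 from -0.98 to -0.42.

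Ndufs1, the largest core subunit of complex I, carries electrons along iron-sulfur clusters. Under monuron the 4 rats had log2 ratios of 0.33, 0.25, 0.41 and 0.39, under dichlorobenzene 0.26, 0.34, 0.38 and 0.35, and under trichloropropane 0.30, 0.16, 0.40 and 0.42. Under tetracycline they had -0.26, -0.18, -0.05 and -0.04, and under aminomethylanthraquinone -0.19, -0.17, 0.14 and -0.18. Every rat of the former 3 groups lay above every rat of the latter 2, and the rats given hexachloroethane (0.05 to 0.12) lay between, with 1 aminomethylanthraquinone rat above them. Against the mean of the other 5 compounds, Ndufs1 was 0.25 higher under monuron (SE 0.054, adjusted p = 0.00277, limma), 0.23 higher under dichlorobenzene and 0.21 higher under trichloropropane. It differed by -0.33 under tetracycline (SE 0.054, adjusted p = 0.00013, limma), and the difference was -0.29 under aminomethylanthraquinone. Both Ndufs1 probes parted the same groups: probe a read 0.26 and probe b 0.43 under monuron, and -0.15 and -0.11 under tetracycline.

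**Figure D2:**
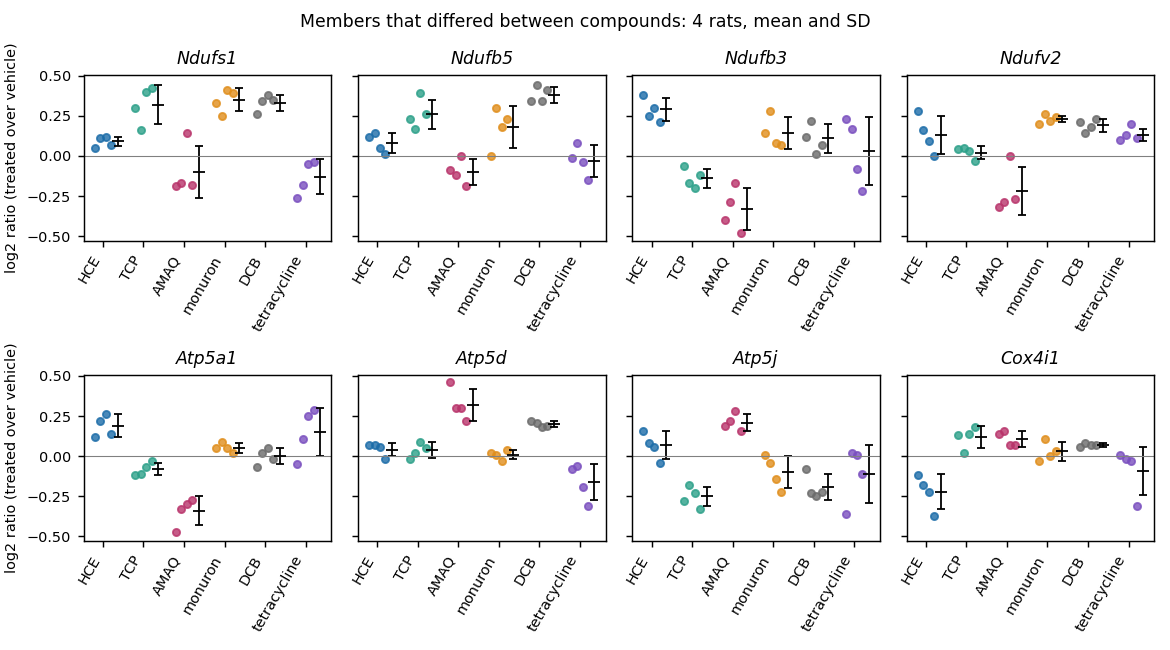
Log2 ratio of treated over vehicle in each rat (points) with mean and SD of 4 rats (black) for 8 members, by compound, abbreviated as in the map of all members. Ndufs1 and Ndufb5 are high under trichloropropane, monuron and dichlorobenzene, Ndufb3, Ndufv2 and Atp5a1 are lowest under aminomethylanthraquinone, where Atp5d and Atp5j are highest, and Cox4i1 is lowest under hexachloroethane.

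Ndufb5, an accessory subunit of the membrane arm, had ratios of 0.34, 0.44, 0.34 and 0.41 under dichlorobenzene, the largest mean of any member under any compound (0.38 ± 0.05). It was 0.26 ± 0.09 under trichloropropane and -0.10 ± 0.08 under aminomethylanthraquinone, whose rats did not overlap with either group. Against the other 5 compounds it was 0.30 higher under dichlorobenzene (SE 0.049, adjusted p = 8.61e-05, limma). Its value rests on probe b alone, since probe a was not well above background on any array. Ndufs8, another core iron-sulfur subunit, was 0.14 ± 0.05 under trichloropropane and -0.26 ± 0.07 under tetracycline, and no rats of these groups overlapped; against the other 5 it was 0.24 higher and the difference was -0.24, respectively (SE 0.043 for each).

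Under aminomethylanthraquinone, against the mean of the other 5 compounds, 9 of the 19 tested subunits of complex I were lower and 1 was higher, and over all members 14 were lower and 6 higher (of all features, 24% and 24.4%). With median centring 34 of the 40 members were lower and 0 higher. Ndufb3, an accessory subunit of the membrane arm, read -0.40, -0.29, -0.17 and -0.48 in the 4 rats, while all 4 hexachloroethane rats lay between 0.21 and 0.38. Against the other 5 compounds Ndufb3 differed by -0.42 under aminomethylanthraquinone (SE 0.064, adjusted p = 1.82e-05, limma) and was 0.32 higher under hexachloroethane (SE 0.064, adjusted p = 0.000642). Ndufv2, a core iron-sulfur subunit near the site of NADH oxidation, differed by -0.36 (SE 0.046) and Ndufa8, on the intermembrane side, by -0.35 (SE 0.036). Ndufv2 read -0.32, -0.29, 0.00 and -0.27 and Ndufa8 -0.30, -0.32, -0.07 and -0.28 in rats 1 to 4, so rat 3 stood nearest to 0 for both, as for Ndufb3. Ndufb9, an accessory subunit of the LYR family, was lowest under the same compound, at -0.34 ± 0.09. In the same complex Ndufb7 (0.19 ± 0.03) and Ndufc2 (0.16 ± 0.06) were called higher than vehicle with loess scaling.

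Bile duct markers stood high under aminomethylanthraquinone: the mean of the 4 genes ran from 1.10 to 1.59 in these rats, and the group median under the other 5 compounds from -0.05 to 0.16. Tacstd1 (current symbol Epcam) was 2.03 higher than vehicle, Spp1 1.73, Krt1-19 (Krt19) 1.34 and Krt2-7 (Krt7) 0.35. The mean of 6 stellate cell and fibrosis markers also ran from 0.20 to 0.39 there, above its group medians of -0.25 to -0.06 under the other compounds. In rat 3, nearest to 0 for the complex I genes above, Krt1-19 (0.91), Krt2-7 (-0.16) and Tacstd1 (1.70) were lowest of the 4 rats and Spp1 (1.98) was highest. The part of these markers in the complex I values was not tested. Under monuron the mean of 3 red blood cell markers ran from 1.02 to 1.32, against group medians of -0.19 to 0.03 elsewhere, and its part in the monuron values was not tested either.

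Most other complex I members moved less. Ndufa6, an accessory subunit of the matrix arm, had the highest mean over the 6 compounds in this complex (0.15) and Ndufb6 the lowest (-0.16). Ndufa5, an accessory subunit of the matrix arm, was called lower under 4 compounds and was lowest under trichloropropane (-0.27 ± 0.03), where its rats read -0.26, -0.24, -0.31 and -0.28. Under monuron its mean was -0.19, and -0.12 without rat 1, which read -0.41 against -0.14 to -0.11 in the other rats. In the same rat Ndufs8 read -0.32 against -0.06 to -0.01, and its call under monuron ended without it (-0.03, adjusted p = 0.555, limma) or without rat 4 (-0.12, adjusted p = 0.0566). Ndufa9, Ndufb8 and Ndufab1 were each called under 1 compound, and Ndufv1, the subunit that binds NADH, was called higher under 1. For Ndufa9 this was monuron, where probe a read -0.03 ± 0.02 and probe b 0.22 ± 0.07. Ndufs7, a core subunit, was called higher than vehicle under trichloropropane alone, and its probe a was well above background in the treated channel on 1 of 24 arrays.

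Complex II oxidises succinate and is also an enzyme of the citric acid cycle. Beside Sdhd, Sdhb, its iron-sulfur subunit, was called higher under 4 compounds, by up to 0.20 ± 0.07 under aminomethylanthraquinone. Sdha, the flavin subunit, had a mean of 0.00 over the 6 compounds, but its probes disagreed: under aminomethylanthraquinone probe a read 0.25 ± 0.06 and probe b -0.24 ± 0.04, and their mean was 0.01. Uqcrfs1, the Rieske iron-sulfur protein, was the one member in complex III. Its rats read 0.20, 0.28, 0.22 and 0.26 under monuron and 0.19, 0.22, 0.23 and 0.23 under dichlorobenzene, above all rats of the other 4 groups, whose highest was 0.18. Against the other 5 compounds Uqcrfs1 was 0.19 higher under monuron (SE 0.030, adjusted p = 0.000134, limma) and 0.16 higher under dichlorobenzene. With Ndufs1 it was called against the other 5 under 5 compounds, more than any other member. These comparisons share the same rats, so such calls are not independent, and their number was not counted for all features.

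In complex IV, Cox4i1 is the widely expressed form of subunit 4, which takes part in regulation by ATP. Under hexachloroethane its rats read -0.12, -0.18, -0.22 and -0.37, and those of aminomethylanthraquinone and trichloropropane read 0.02 to 0.18 without overlap. Against the other 5 compounds Cox4i1 differed by -0.27 under hexachloroethane (SE 0.048, adjusted p = 0.000231, limma), and its probes differed by 0.08 or less under each compound. Cox4nb, now named Emc8, starts 148 bases from Cox4i1 on the opposite strand in RefSeq (GRCr8). Under hexachloroethane Cox4nb was called lower as well (-0.15 ± 0.04), while under trichloropropane Cox4i1 was called higher (0.12 ± 0.07) and Cox4nb lower (-0.16 ± 0.04). Cox7b, a small membrane subunit, read -0.28, -0.32, -0.24 and -0.38 under aminomethylanthraquinone, below every rat of the other 5 groups (difference -0.33, SE 0.038, adjusted p = 4.34e-07, limma).

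Cox4i2, the form of subunit 4 known from lung and from responses to low oxygen, rested on a single working probe. Probe a was not well above background in any treated channel, and probe b was above it on all 24 arrays. Probe b read 0.42 ± 0.09 under hexachloroethane, 0.64 ± 0.24 under aminomethylanthraquinone, 0.70 ± 0.11 under monuron and 0.73 ± 0.25 under tetracycline, against 0.06 ± 0.12 under trichloropropane and 0.07 ± 0.06 under dichlorobenzene. The rats of those 4 groups (0.30 to 0.96) lay above those of the latter 2 (-0.11 to 0.19). Both probes hold the 26 bases ggaaaaagtgaccaacatcacagtct, shown because probes that share them gave such different signals. With both probes averaged the means were 0.18, 0.28, 0.34 and 0.34 in the same 4 groups, all called higher, and Cox4i2 stayed above 0 with median centring. Its difference between monuron and dichlorobenzene, which were scanned on the same day, was 0.30 (SE 0.068, adjusted p = 0.00269, limma). The call for tetracycline against vehicle ended with the scanner's own log ratio (0.20, adjusted p = 0.109).

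Cox8h (current symbol Cox8b), the heart and muscle form of subunit 8, was dim, above background in the treated channel on 16 of 24 arrays. It was the one member called under no compound (means 0.02 to 0.08), 2.5% of members beside 6.23% of all features. Cox6a1, the liver form of subunit 6a, was called once, lower under trichloropropane (-0.10 ± 0.07), where probe a read -0.20 ± 0.06 and probe b 0.00 ± 0.08. Cox6c was called higher under hexachloroethane and aminomethylanthraquinone, with means of 0.13 and 0.09. Cox5b, the zinc-binding subunit, was called lower under tetracycline (-0.20 ± 0.10), but probe a read -0.41 ± 0.17 and probe b 0.02 ± 0.05 there.

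ATP synthase has a catalytic head of alpha and beta subunits, a central stalk and a peripheral stalk, and under aminomethylanthraquinone its members parted. Atp5a1, the alpha subunit, read -0.47, -0.33, -0.30 and -0.27 in these rats, below every other rat, and differed by -0.40 from the other 5 compounds (SE 0.046, adjusted p = 5.66e-07, limma). Atp5b, its partner in the head, was called higher than vehicle there (0.15 ± 0.08) with loess scaling. Atp5d, the delta subunit of the central stalk, read 0.46, 0.30, 0.30 and 0.22, and was 0.30 higher than under the other 5 (SE 0.040). Atp5j, coupling factor 6 of the peripheral stalk, read 0.19, 0.22, 0.28 and 0.16 and was 0.33 higher (SE 0.055). With median centring the difference of Atp5a1 was -0.77, but those of Atp5d (0.07, adjusted p = 0.174) and Atp5j (0.00, adjusted p = 0.971) were lost.

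Atp5j went the other way under trichloropropane (-0.28, -0.18, -0.23 and -0.33), where it differed by -0.23 from the other 5 compounds (SE 0.055, adjusted p = 0.00326, limma). Atp5a1 was 0.23 higher under hexachloroethane (SE 0.046) and 0.19 higher under tetracycline (SE 0.046) than under the other 5. Atp5o, the oligomycin sensitivity protein that joins the stalk to the head, was highest under dichlorobenzene (0.31, 0.34, 0.31 and 0.34) and trichloropropane (0.28, 0.30, 0.37 and 0.26). Under tetracycline it read 0.10, 0.11, 0.09 and -0.05, below every rat of those groups, and differed from the other 5 compounds by -0.17 (SE 0.039). Under aminomethylanthraquinone Atp5o was low as well (0.08 ± 0.09, not called against vehicle). There it differed from the other 5 by -0.15 (SE 0.039, adjusted p = 0.00324, limma). Atp5d too was lower under tetracycline, by -0.28 against the other 5 (SE 0.040, adjusted p = 2.47e-05, limma). Atp5e, the epsilon subunit of the central stalk, had the lowest mean of the complex over the compounds (-0.12) and was lowest under trichloropropane (-0.22 ± 0.05). Its calls under monuron and dichlorobenzene ended with the scanner's log ratio (-0.05 and 0.00, adjusted p = 0.264 and 1). Atp5s, coupling factor B, was 0.23 higher under dichlorobenzene (SE 0.047) and differed by -0.26 under tetracycline (SE 0.047) from the other 5. Under tetracycline its probes read -0.40 and 0.01, and with the brightest probe alone that call ended (-0.16, adjusted p = 0.053, limma).

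Atp5o and Ndufs1 were both called higher under trichloropropane, monuron and dichlorobenzene with loess scaling, and the 250 bases before their RefSeq start (build GRCr8) are shown because each holds 1 element known from genes of this pathway. Capitals mark the NRF1 element GCGCATGCG in Atp5o and the GABPA element CCGGAAG, here on the other strand, in Ndufs1.
Atp5o (chr11:44657484-44657733, minus strand): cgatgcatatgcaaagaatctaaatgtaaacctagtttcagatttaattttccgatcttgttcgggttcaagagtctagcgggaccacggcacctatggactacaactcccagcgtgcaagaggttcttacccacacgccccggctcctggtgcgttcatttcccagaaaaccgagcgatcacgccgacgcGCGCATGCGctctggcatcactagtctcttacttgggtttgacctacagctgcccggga
Ndufs1 (chr9:72073606-72073855, minus strand): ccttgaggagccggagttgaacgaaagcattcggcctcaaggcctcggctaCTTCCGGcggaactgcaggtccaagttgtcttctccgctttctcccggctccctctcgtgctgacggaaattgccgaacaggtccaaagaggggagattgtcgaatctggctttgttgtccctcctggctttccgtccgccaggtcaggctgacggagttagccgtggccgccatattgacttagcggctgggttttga
Of the 42 members, 36 matched a promoter of the RefSeq table, which runs from 250 bases before to 50 after the start. On either strand CCGGAAG was in 11 of them (30.6%) and in 9.22% of all 27457 promoters, and the YY1 element AAGATGGCG in 6 (16.7%) and in 1.93%. GCGCATGCG was in 1 (2.78%) and 1.66% of all, the element TCAAGGTCA of the estrogen-related receptors in 1 (2.78%, Sdhd) and 0.412%, and the TATA box TATAAA in 1 (2.78%, Cox8h) and 14.3%. The shares for GGGCGG, known from SP1, were 38.9% and 34.9%, and for CCAAT 30.6% and 37.7%. A match is a description of these letters, and no binding was measured.

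Against the mean of the other 5 compounds hexachloroethane called 13 members higher and 4 lower (of all features, 16.9% and 17.8%), trichloropropane 8 and 9 (15.5% and 16.3%), monuron 4 and 3 (11.4% and 11.7%), dichlorobenzene 13 and 4 (17.3% and 13.9%) and tetracycline 3 and 11 (14.9% and 18.2%). These counts depend on the scaling. With median centring hexachloroethane had 21 higher and 1 lower, dichlorobenzene 20 and 2, trichloropropane 3 and 7 and monuron 3 and 2, and the balance for tetracycline turned, to 13 higher and 4 lower. The 13 for hexachloroethane became 8 without its rat 2 and 7 without rat 3, and its 4 became 2 without rat 4. The 8 and 9 for trichloropropane became 4 without rat 3 and 5 without rat 2, and the 4 for dichlorobenzene became 2 without rat 4. Beside Ndufb3, Ndufb2, a membrane arm subunit, was 0.19 higher (SE 0.037) and Ndufa5 0.18 higher (SE 0.041) under hexachloroethane than under the other 5. Under dichlorobenzene Ndufb7 was 0.18 higher (SE 0.032), Cox7b 0.18 (SE 0.038) and Ndufa8 0.17 (SE 0.036).

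Compounds scanned on the same day allow a comparison without scan day. Hexachloroethane over tetracycline called 8 members higher and 0 lower (of all features, 11.8% and 11.0%), a pair that also differed in vehicle. With median centring these were 2 and 1, the scanner's log ratio and the series table each gave 5 higher, and the brightest probe gave 1 lower. Atp5s led with a difference of 0.33 (SE 0.061, adjusted p = 0.000593, limma), followed by Ndufb3 (0.26, adjusted p = 0.0293) and Ndufs1 (0.22, adjusted p = 0.0288). The calls for Ndufb3 and Ndufs1 ended without single rats, for Ndufb3 without 5 of the 8 rats in turn and for Ndufs1 without 4. The 8 became 3 without hexachloroethane rat 2 and 5 without rat 3, and the 0 became 2 without tetracycline rat 4. Monuron over dichlorobenzene called 2 higher, Cox4i2 among them, and 7 lower (10.6% and 13.3%). Ndufb7, an accessory subunit of the membrane arm, led the lower ones with -0.30 (SE 0.041, adjusted p = 2.21e-05, limma): its rats read -0.11, 0.03, -0.06 and 0.03 under monuron and 0.34, 0.26, 0.21 and 0.28 under dichlorobenzene, without overlap. Ndufb5 (-0.21) and Atp5s (-0.21) followed, and Ndufs1 did not differ beyond its error (0.01, 95% interval -0.13 to 0.16). The 7 became 3 without monuron rat 1 and 4 without dichlorobenzene rat 2. Ndufb5 lost its call without monuron rat 1 (adjusted p = 0.0987) or dichlorobenzene rat 2 (0.0638), and Atp5s without 3 of the 8. Ndufb5 also lost it without the filter on dim probes (-0.07, adjusted p = 0.293, limma) and Atp5s with the brightest probe alone (-0.18, adjusted p = 0.117).

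Carcinogens and non-carcinogens were compared with compound as a random block, 4 compounds against 2. In limma 0 members were called in either direction, and 0% of all features were. At an unadjusted p under 0.05 there were 0 members and 195 features (1.53%).

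Other parts of the mitochondrion and of protein turnover were counted in the same way for scale, with loess. Their counts stand beside the shares of all features called higher and lower, which were 22.6% and 27.3% under hexachloroethane, 20.4% and 25.1% under trichloropropane, 27.7% and 31.0% under aminomethylanthraquinone, 20.2% and 25.6% under monuron, 25.2% and 26.9% under dichlorobenzene and 14.9% and 21.5% under tetracycline. Proteasome subunits, 24 tested, had a median of 0.52 under hexachloroethane with 21 called higher and 1 lower, and cytosolic ribosomal proteins, 16 tested, a median of 0.38 under dichlorobenzene with 16 higher. The median of the oxidative phosphorylation genes was 0.08 and 0.07 under these compounds, and 18 and 17 of the 40 were not called. Mitochondrial ribosomal proteins, 19 tested, had a median of 0.18 under dichlorobenzene with 17 called higher and 1 lower, Mrpl12 among the higher ones (0.47 ± 0.11). Mrps14 of this list was -0.39 ± 0.14 under aminomethylanthraquinone. Of 11 genes of the citric acid cycle and pyruvate dehydrogenase, 8 were called higher and 0 lower under dichlorobenzene, led by Dlat (0.72 ± 0.04), the acetyltransferase of pyruvate dehydrogenase. Mitochondrial beta oxidation genes, 13 tested, were called 5 higher and 0 lower under both trichloropropane and monuron, the largest being Dci under monuron (0.79 ± 0.19).

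**Figure D3:**
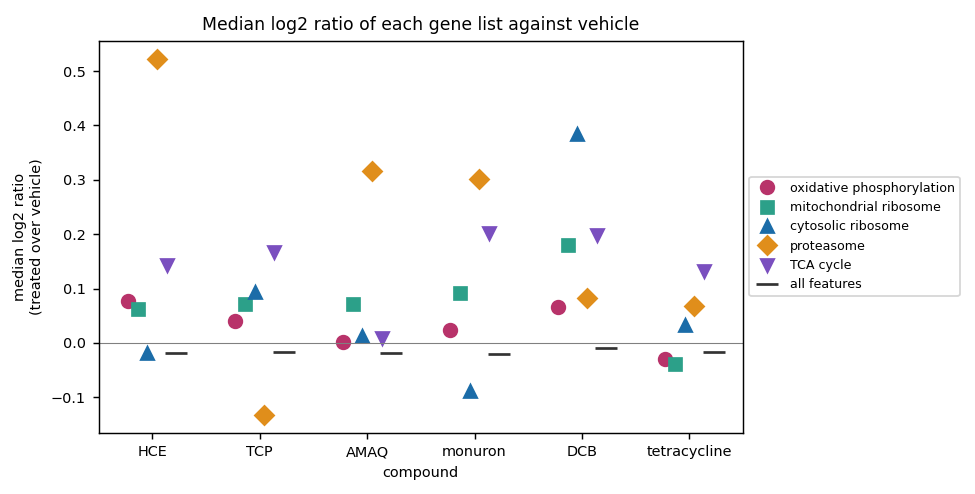
Median log2 ratio of treated over vehicle (vertical axis, loess-scaled) of each gene list and of all features tested, by compound, abbreviated as in the map of all members. The oxidative phosphorylation median stays between -0.03 and 0.08, while the proteasome reaches 0.52 and the cytosolic ribosome 0.38; with median centring the oxidative phosphorylation medians lie between -0.82 and -0.39.

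Genes that carry ATP, ADP and ions across mitochondrial membranes were all called higher under aminomethylanthraquinone, 6 of 6, with a median of 0.44. They included the channel Vdac1 (0.54 ± 0.06) and the nucleotide carrier Slc25a4 (0.47 ± 0.20). Of 9 genes of electron carriers and coenzyme Q synthesis, 7 were called higher and 0 lower under monuron. Under trichloropropane Gpd2, which passes electrons from glycerol phosphate, was 0.51 ± 0.26, while RGD1359509 of the same list was -0.86 ± 0.58. Assembly factors outside the name rule, 8 tested, were called 6 higher and 1 lower under dichlorobenzene. Nubpl, which inserts iron-sulfur clusters into complex I, was 0.36 ± 0.09 under trichloropropane. In that list RGD1307232 was -0.34 ± 0.07 under monuron and RGD1309691 -0.33 ± 0.08 under tetracycline. Of 12 regulators of mitochondrial biogenesis, between 0 and 3 were called higher and 2 or 3 lower under each compound (of all features, 14.9 to 27.7% and 21.5 to 31.0%). Polg, the mitochondrial DNA polymerase, was 0.49 ± 0.28 under trichloropropane, and Polg2 was -0.49 ± 0.32 under dichlorobenzene. Of 4 genes of mitochondrial import, Tomm40 was 0.34 ± 0.27 under hexachloroethane, Timm23 0.32 ± 0.07 under aminomethylanthraquinone and Tomm20 -0.25 ± 0.02 under trichloropropane. The mitochondrial stress response list, 12 tested, held the largest changes: 10 were called higher and 0 lower under hexachloroethane, and 1 higher under tetracycline, with Phgdh, the entry enzyme of serine synthesis, at 2.68 ± 0.22 under dichlorobenzene.

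The probes of a gene give a measure of how far these small values can be read. Of the 40 tested members, 16 had 1 kept probe, among them Atp5a1, Atp5j, Ndufb3, Ndufb9, Ndufs8, Sdhd, Atp5c1 and Atp5e. Their values could not be set beside a second kept probe. The other 24 had 2 kept probes, and in 96 of the 144 pairs of gene and compound both probes had the same sign. In the 5 genes whose probes share 26 bases or more this held for 23 of 30 pairs. In the other 19 genes it held for 73 of 114. Probes that overlap by 57 or 58 bases, in Ndufb8 and Atp5f1, differed by 0.02 on average. For 7 of the 24 genes the probes differed by more than 0.1 on average over the compounds. In Uqcrfs1 probe a read 0.18 to 0.24 above probe b under every compound, and in Cox7b, whose probes share 40 bases, 0.12 to 0.15 above. Such a constant step shifts the value against vehicle and leaves differences between compounds as they are: the compound means of Uqcrfs1 spanned 0.27 on probe a and 0.30 on probe b. In Sdha the step was 0.48 under aminomethylanthraquinone and as low as 0.06 elsewhere, so that there the comparison between compounds depends on the probe as well.

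**Figure D4:**
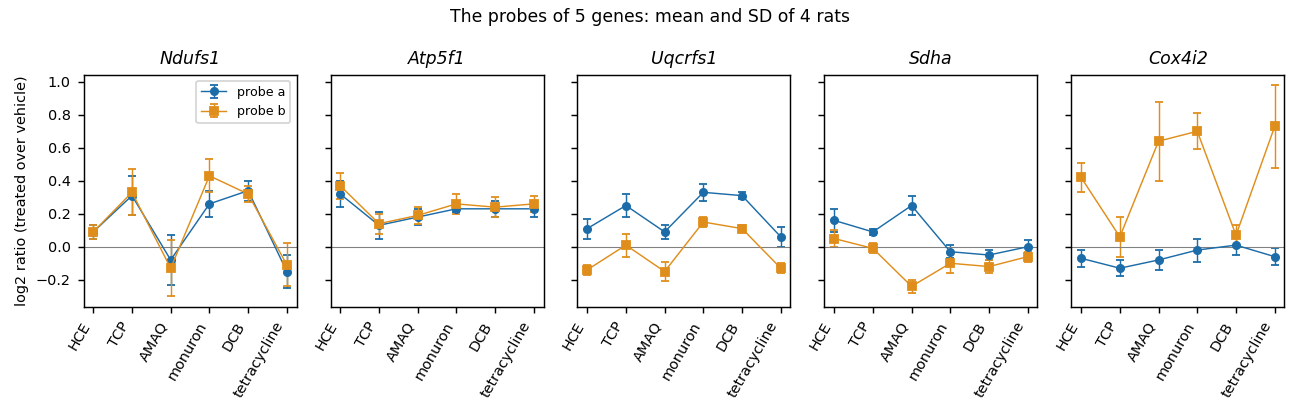
Log2 ratio of treated over vehicle on the separate probes of 5 genes, as mean and SD of 4 rats per compound, abbreviated as in the map of all members. Both probes run together in Ndufs1 and in Atp5f1, whose probes share 58 bases. They run parallel at a step of 0.18 to 0.24 in Uqcrfs1 and cross apart under aminomethylanthraquinone in Sdha. In Cox4i2 probe b, the one above background, reads 0.42 to 0.73 under 4 compounds, where probe a lies between -0.08 and -0.02.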

How the data were processed

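Agilent Feature Extraction 9.1.3.1 had read the arrays, per the submitters' processing notes. The deposited scanner files held linear intensity of both dyes and a log10 ratio, per the file headers. The authors' deposited series table held log2 values, which followed the scanner ratios turned to treated over vehicle. Over 12531 probes the correlation was 0.936 for tetracycline rat 1, 0.98 for monuron rat 1 and 0.999 or 1 on the other arrays. Genome build and array annotation source were not given in the sources used here. Treated RNA was always Cy3 and pooled vehicle RNA Cy5, with no dye swap. The vehicle pool counts as 1 sample, so no test includes the spread between vehicle rats.

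Signals were corrected with normexp (offset 50) and scaled with loess in limma 3.58.1 (R 4.3.3). Between 15 and 291 spots per array carried an outlier mark and were left out, also from the fit of the background, since on hexachloroethane rat 2 a fit on all spots gave a background mean of -503.3 in place of 10.8. Of 21900 probes, 16085 lay well above background in 1 dye on all 4 arrays of a compound and were kept; probes of a gene were averaged. All 24 arrays were fitted with 1 mean per compound (lmFit, eBayes, 18 residual and 2.86 prior degrees of freedom), and the classes with duplicateCorrelation (0.594). Tests were checked on simulated data. Genes carry the names of the array design. RefSeq (GRCr8) gave a current symbol for all 42 members, unchanged for 30. Among the changed ones Atp5f1 is now Atp5pb, Atp5a1 is Atp5f1a, Atp5d is Atp5f1d, Atp5j is Atp5pf and Atp5s is Dmac2l. Whether compounds shared a vehicle pool is not given. Members and lists were chosen with earlier results of these data known. Genes named are the largest called changes per comparison (4 per direction against vehicle, 3 otherwise), the extremes of each complex, paired isoforms, members of 1 sign in 24 rats and up to 3 per list; Ndufa8, Ndufb2, Cox7b and others given with a call or a range were added to account for the members; 1 tested member stays in the counts and is not reported by name here. Replicate numbers did not pair rats: same-numbered rats of different compounds had deviations correlated at 0.054 on average (-0.241 to 0.4).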

Additional observations from a re-analysis of the deposited data

Results flagged for a closer look

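A rat far from its group was found for 4 of the 52 values checked, where chance gives about 1 in 20. Under hexachloroethane rat 4 read -0.23 for Ndufb6 against -0.12 to -0.10 in the other rats, and its median over the members was -0.006 against 0.092 to 0.102. Under monuron rat 1 read -0.41 for Ndufa5 and -0.32 for Ndufs8. The array of this rat had the lowest share of probes well above background in Cy3 (59.7%). Its fitted Cy3 background mean was -1.2, against 15.1 to 36.9 in the other monuron rats. For tetracycline rat 1 that mean was -5.2, against 10.7 to 10.8 in its group. The part of these array values in the results was not tested.

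The members listed next had the largest called differences (limma) from the mean of the other 5 compounds, by size and within each direction. Ranked so, Ndufa8 under aminomethylanthraquinone (-0.35) was left out beside smaller differences of the other sign. Under hexachloroethane the listed members were Ndufb3 (0.32), Atp5a1 (0.23), Ndufb2 (0.19), Cox4i1 (-0.27), Ndufs8 (-0.14) and Ndufa6 (-0.12). Under trichloropropane they were Ndufs8 (0.24), Ndufs1 (0.21), Cox7b (0.18), Cox4i2 (-0.27), Atp5j (-0.23) and Ndufa5 (-0.19). Under aminomethylanthraquinone they were Atp5j (0.33), Atp5d (0.30), Cox4nb (0.20), Ndufb3 (-0.42), Atp5a1 (-0.40) and Ndufv2 (-0.36). Under monuron they were Ndufs1 (0.25), Uqcrfs1 (0.19), Cox4i2 (0.18), Ndufb7 (-0.18), Ndufc2 (-0.14) and Ndufb2 (-0.11). Under dichlorobenzene they were Ndufb5 (0.30), Atp5s (0.23), Ndufs1 (0.23), Cox4i2 (-0.18) and Atp5j (-0.16). Under tetracycline they were Atp5a1 (0.19), Cox4i2 (0.18), Ndufs1 (-0.33), Atp5d (-0.28) and Atp5s (-0.26). Values are log2 differences, and each compound lay on its own slide. Atp5j under aminomethylanthraquinone, Atp5d and Cox4nb there, Ndufs8 and Ndufa6 under hexachloroethane, Cox7b under trichloropropane, Ndufb2 under monuron, and Atp5j under dichlorobenzene were not called with median centring. Cox4i2 lost its calls with the series table under monuron (adjusted p = 0.052, limma), dichlorobenzene (0.0551) and tetracycline (0.186). With the scanner's log ratio it lost the call under tetracycline (adjusted p = 0.64, limma). Atp5s under tetracycline lost its call with the brightest probe. Without single rats, calls ended for Ndufs8 and Ndufa6 under hexachloroethane, Cox4i2 and Ndufb2 under monuron, Atp5j under dichlorobenzene and Cox4i2 under tetracycline.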

How the results depend on the processing

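Between 35 and 38 members were called lower and 2 or 3 higher against vehicle with median centring: 2 higher and 36 lower for hexachloroethane, 3 and 37 for trichloropropane, 2 and 38 for aminomethylanthraquinone, 2 and 35 for monuron, 2 and 35 for dichlorobenzene and 2 and 37 for tetracycline. Members' medians, in that order, were -0.474, -0.577, -0.815, -0.562, -0.388 and -0.530. Against the other 5 compounds it gave hexachloroethane 21 higher and 1 lower, trichloropropane 3 higher, aminomethylanthraquinone 0 higher and 34 lower, dichlorobenzene 20 and 2, and tetracycline 13 and 4, and for hexachloroethane over tetracycline 2 and 1. Increases over vehicle that turned were Atp5f1 (-0.42) and Ndufc2 (-0.29) under hexachloroethane, Ndufs1 (-0.18), Atp5o (-0.41), Sdhd (-0.46) and Ndufb5 (-0.38) under trichloropropane, and Atp5d (-0.36), Sdhd (-0.71) and Atp5j (-0.72) under aminomethylanthraquinone. Under monuron they were Ndufs1 (-0.11), Atp5f1 (-0.67) and Uqcrfs1 (-0.42), under dichlorobenzene Ndufb5 (-0.14), Ndufs1 (-0.06), Atp5o (-0.27) and Ndufb7 (-0.34), and under tetracycline Atp5f1 (-0.47) and Sdhd (-0.39). Atp5j under aminomethylanthraquinone against the other 5 was 0.00. The scanner's log ratio gave 4 lower for trichloropropane against the other 5, 5 higher for hexachloroethane over tetracycline, 1 higher for monuron over dichlorobenzene, medians of 0.075 for trichloropropane and 0.115 for dichlorobenzene, and 0.00 for Atp5e under dichlorobenzene. The series table gave, against the other 5, 7 higher for hexachloroethane, 5 lower for trichloropropane, 10 higher for aminomethylanthraquinone, 6 lower for monuron and 2 lower for dichlorobenzene, 5 higher for hexachloroethane over tetracycline, and medians of 0.064 for trichloropropane and 0.112 for dichlorobenzene. The brightest probe gave 1 lower for hexachloroethane over tetracycline and medians of 0.073 for monuron and 0.075 for dichlorobenzene. Causes were not tested. No count or median above left its 1.5-fold range or SD without the filter on dim probes or, an alternative chosen after seeing the data, with normexp fitted on all spots.

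Leaving out each rat in turn gave counts called higher and lower against vehicle of 15 to 19 and 4 to 5 for hexachloroethane, 13 to 14 and 6 to 8 for trichloropropane, 11 to 13 and 8 to 10 for aminomethylanthraquinone, 12 to 15 and 3 to 4 for monuron, 16 to 16 and 6 to 7 for dichlorobenzene and 8 to 12 and 9 to 10 for tetracycline. Against the other 5 they were 7 to 12 and 2 to 4 for hexachloroethane, 4 to 7 and 5 to 7 for trichloropropane, 4 to 7 and 12 to 16 for aminomethylanthraquinone, 3 to 4 and 2 to 3 for monuron, 10 to 12 and 2 to 4 for dichlorobenzene and 2 to 3 and 9 to 11 for tetracycline. Hexachloroethane over tetracycline gave 3 to 11 and 0 to 2, monuron over dichlorobenzene 1 to 2 and 3 to 7, and the classes 0 in each direction. The medians, in the order above, ran over 0.063 to 0.104, 0.029 to 0.053, -0.003 to 0.008, 0.011 to 0.048, 0.060 to 0.077 and -0.043 to -0.012. Of 87 named values, 70 kept their call in every setting but median centring, and 11 lost it without 1 rat. With the replicate number as a block, aminomethylanthraquinone called 15 members lower against the other 5 and Ndufs8 under monuron lost its call (-0.10, adjusted p = 0.051, limma); of the other 86 named values none lost theirs, and no count moved by over 1.5 times. The numbers did not pair rats (7 of 24 arrays correlated best with their own number).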
